A study of Mus musculus with 12 samples.

Results

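The genes described here encode the translocases that carry proteins into mitochondria: Tomm genes for the outer membrane and Timm genes for the inner membrane and the space between. Members were taken by name, as protein-coding genes of the mouse annotation whose symbol begins with Timm or Tomm followed by a number, and 25 of the 30323 genes in the table met this rule (15 Timm and 10 Tomm). The name rule uses no expression values, although it was chosen with earlier results of these data known. RNA was taken from the soleus, a slow-fibre calf muscle, of male C57BL/6N mice aged 24 months. All were drawn from the NIA aging colony, lived 1 to a cage and had a running wheel for 8 weeks. They were classed as high functioning (HF) or low functioning (LF) on an accelerating rotarod, and each class had a laparotomy, an opening of the abdomen, or a control treatment, with muscle taken 5 days later. The 12 libraries form 4 groups of 3: HF laparotomy, HF control, LF laparotomy and LF control. The replicate numbers used below only name libraries and pair nothing. Whether each library is a separate mouse is not stated in the labels, so every p-value measures only how much these libraries vary, and that variation may be technical.

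Most mitochondrial proteins are made in the cytosol and enter through the TOM complex, in which receptors recognise the incoming chain and a beta-barrel channel passes it across the outer membrane. Chains with a presequence then go to the TIM23 complex, which is driven by the membrane potential and by an Hsp70 motor in the matrix. Carriers with many membrane spans are escorted through the intermembrane space by the small TIM chaperones and are inserted by the TIM22 complex.

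The small TIMs share a signature that the choice by name did not use. Only these genes were searched for it, so its presence describes them and how common it is elsewhere was not counted. In the coding sequence of each of the 7 small TIM genes a script found a pair of CX3C motifs, 2 cysteines with 3 residues between them, separated by 14 to 16 codons. The disulfide bonds between these cysteines hold the helical hairpin of each subunit closed. The stretches from the first to the last of these cysteine codons, from GENCODE M21 on GRCm38, are shown for the 6 small TIM genes that the muscle expressed, with the cysteine codons in capitals.
Timm9: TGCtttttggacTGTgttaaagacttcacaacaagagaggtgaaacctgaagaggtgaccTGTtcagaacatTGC
Timm10: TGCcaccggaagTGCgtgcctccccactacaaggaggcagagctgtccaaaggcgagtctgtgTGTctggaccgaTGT
Timm10b: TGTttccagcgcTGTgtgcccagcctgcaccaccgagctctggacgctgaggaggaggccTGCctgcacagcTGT
Timm8a1: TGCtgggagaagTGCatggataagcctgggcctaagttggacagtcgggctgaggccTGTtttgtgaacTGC
Timm8b: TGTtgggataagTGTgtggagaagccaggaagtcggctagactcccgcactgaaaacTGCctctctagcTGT
Timm13: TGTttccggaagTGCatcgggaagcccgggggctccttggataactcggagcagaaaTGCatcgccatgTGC
The spacing between the 2 motifs was 14 codons in Timm8a1, Timm8b and Timm13, 15 in Timm9 and Timm10b, and 16 in Timm10.

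Promoters (the 250 bases before and the first 50 bases after the start, from RefSeq on GRCm38.p6) were at hand for 22 members. They were searched on both strands for 4 motifs of factors known from nuclear genes for mitochondrial proteins. The ETS motif CCGGAAG, of the kind bound by GABPA (NRF2), was found in 9 of the 22 (Timm10, Timm10b, Timm23, Timm29, Timm8a2, Timm8b, Tomm22, Tomm34 and Tomm70a), against 9.93% of the 27025 genes with a promoter. A gene with several promoter windows was counted if any of them held the motif. The NRF1 core GCATGCGC was found in Timm13 (3.05% of all genes with a promoter), the ESRRA motif TCAAGGTCA in Timm8b (0.466%) and the YY1 motif AAGATGGCG in Timm50 (1.64%). A match is a string of letters and not a measured site. The promoters shown are those of Tomm70a and Timm9, which had the smallest p among members lower and higher in HF muscle, and of Timm8b, which held 2 of the motifs. Motif letters are in capitals and do not overlap each other in these promoters.
Tomm70a (chr16:57121464-57121763, plus strand): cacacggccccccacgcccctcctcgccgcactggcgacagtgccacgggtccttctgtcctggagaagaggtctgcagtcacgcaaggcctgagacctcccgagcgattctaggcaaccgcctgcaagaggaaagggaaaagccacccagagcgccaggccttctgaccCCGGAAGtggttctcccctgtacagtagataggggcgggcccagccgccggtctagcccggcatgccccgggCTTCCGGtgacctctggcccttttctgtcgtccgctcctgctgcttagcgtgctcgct
Timm9 (chr12:71136626-71136925, minus strand): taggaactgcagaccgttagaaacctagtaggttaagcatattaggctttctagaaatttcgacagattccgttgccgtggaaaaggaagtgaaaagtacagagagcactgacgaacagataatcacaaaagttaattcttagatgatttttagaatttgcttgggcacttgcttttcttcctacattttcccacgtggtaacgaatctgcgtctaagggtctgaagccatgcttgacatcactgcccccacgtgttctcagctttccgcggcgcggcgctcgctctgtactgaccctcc
Timm8b (chr9:50603651-50603950, plus strand): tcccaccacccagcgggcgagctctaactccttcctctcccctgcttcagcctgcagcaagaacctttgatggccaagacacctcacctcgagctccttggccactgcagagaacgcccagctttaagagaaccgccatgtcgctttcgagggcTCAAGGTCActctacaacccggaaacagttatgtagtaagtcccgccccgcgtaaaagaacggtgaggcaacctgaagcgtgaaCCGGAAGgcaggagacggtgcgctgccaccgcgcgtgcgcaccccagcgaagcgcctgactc
In Tomm70a the ETS letters begin 80 bases before the start on the gene's own strand and again 8 bases before it on the other strand. In Timm8b the ESRRA letters begin 96 bases and the ETS letters 12 bases before the start. None of the 4 motifs is spelled out in the Timm9 window, which says nothing of the factors.

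Values are TPM, transcript abundances corrected for length and scaled to a fixed library total, so the depth of sequencing is unknown and no counting interval can be given. Between 26.4% and 39.7% of a library's TPM lay in the 13 genes of the mitochondrial genome, and 16993 to 18148 genes were above 0. Slow muscle markers were present in full (7 of 7 at a mean of 1 TPM or more, 30321 to 45208 TPM summed), in keeping with a soleus, and fast markers summed to 18214 to 28092 TPM. The fast myosin Myh4, listed below 6 TPM in 9 libraries, was at 90.8 TPM in HF laparotomy 2, 62.4 in LF laparotomy 1 and 33.5 in LF control 3. Values without these 3 libraries are given for some of the calls and counts that change without them. LF laparotomy 3 stands apart for the genes described here: it had the lowest mitochondrially encoded share (26.4%) and the highest level of 13 of the 23 members tested. The members' summed level was 1257 TPM in it, against 952 to 1144 TPM in the other 11 libraries. Its sum and its mitochondrially encoded share are parts of 1 fixed total, and what part either has in the other was not tested.

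Of the 25 members, 23 reached a mean of 1 TPM over the 12 libraries and were tested (14 Timm and 9 Tomm). The other two were Timm8a2, listed at 0 in 8 libraries with a highest level of 0.0475 TPM, and Tomm20l, at 0 in all 12. All 23 were above 0 in every library, so none passed through 1 group alone.

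The members differed in level far more than they differed between groups. The mean TPM was led by 3 inner membrane and intermembrane space genes, over the 12 libraries: Timm17a (173), a TIM23 channel subunit, Timm23 (165), the namesake of that complex, and Timm8b (149.5), a small TIM. Their ranges overlapped (136 to 214, 135 to 193 and 137 to 167 TPM), so their order is not set by these data. The TOM genes with the highest levels were Tomm22 (62.3), the central receptor that holds the complex together, and the small subunits Tomm5 (57.1), Tomm6 (54.6) and Tomm7 (47.4), which surround the channel. The channel gene Tomm40 was at 26.3 TPM and its paralog Tomm40l at 25.3. The receptors Tomm20 (24.5) and Tomm70a (19.7), which bind presequences and internal signals of carriers, lay below Tomm22, whose level was a median of 2.51 times that of Tomm20 (2.10 to 2.79 over 12 libraries). Tomm34, a cytosolic cochaperone of Hsp70 and Hsp90, was the lowest tested member (8.87).

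In the TIM23 complex Timm44, which tethers the Hsp70 motor, had 49.1 TPM, Timm50, the receptor that faces the intermembrane space, 33.1, and Timm21, which contacts the TOM complex, 16.7. The TIM22 channel gene Timm22 had 24.4 TPM, and Timm29, a TIM22 subunit known from human cells, 22.1. The level of Timm23 was a median of 6.75 times that of Timm22 (6.10 to 7.63). Partners of the small TIM hexamers were not at equal levels. Timm10 and Timm9, which form 1 hexamer, had 37.4 and 14.0 TPM, a median ratio of 2.56 (1.85 to 4.44), and Timm8b was a median of 12.6 times Timm13 (10.7 to 14.3), with which the Timm8 proteins pair. Timm10b, a small TIM of the TIM22 complex, had 15.6 TPM, and Timm8a1, whose human counterpart is mutated in deafness-dystonia syndrome, 12.6.

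Some of these levels are uncertain for reasons of sequence. Timm23 has a near-identical copy, the protein-coding gene Gm10273 (99.91% identity over 95.57% of the transcript), and an aligner can split reads between them. Gm10273 was listed at 10.5, 22.1 and 1.95 TPM in HF laparotomy, 31.8, 11.1 and 2.13 in HF control, 3.08, 7.58 and 2.55 in LF laparotomy, and 7.75, 36.0 and 0 in LF control. Timm23 itself was lowest in the same 2 libraries in which the copy was highest, HF control 1 (135 TPM) and LF control 2 (145). The copy held 0% to 19.9% of the summed level, and the sum ran from 148 to 196 TPM. Tomm6 shares 87.58% of its length with a gene on the same strand, Gm21981, at 100% identity, listed at a mean of 0.159 TPM. Exons of 5 members overlap those of a tested gene on the opposite strand: Timm8b with Nkapd1, Tomm6 with Usp49, Timm29 with Yipf2, Tomm70a with Nit2 and Timm10b with Arfip2. Reads from the stretches that overlap can only be told apart by strand, and whether the quantification used it is not stated. These values are therefore uncertain too, to an extent not known here, since the length of the overlaps was not measured. Timm9 overlaps another member in this way, Tomm20l, which was listed at 0.

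**Figure D1:**
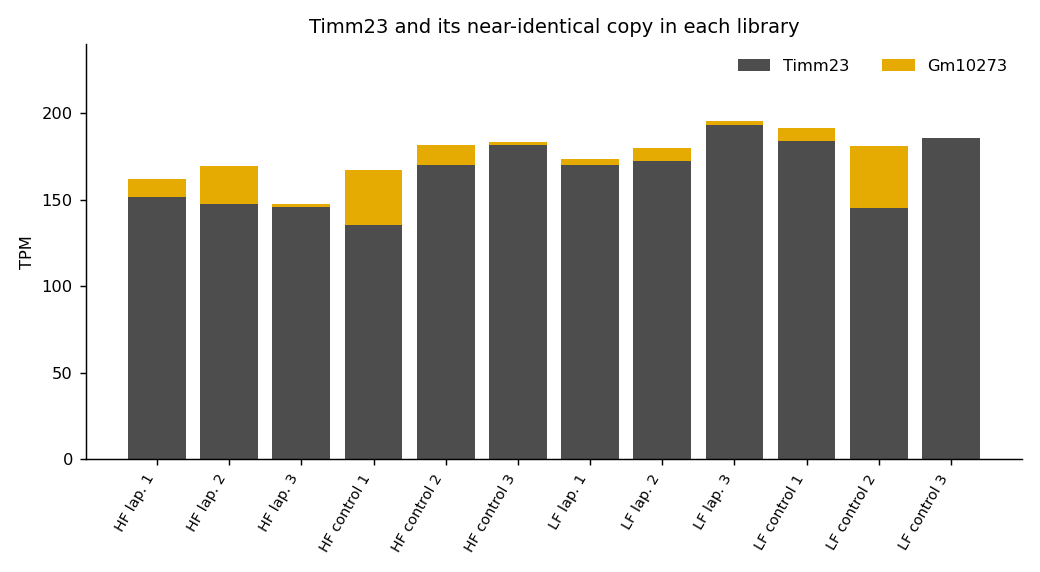
Stacked bars show the level in TPM of Timm23 (grey) and of its near-identical copy Gm10273 (yellow) in each of the 12 libraries, HF groups on the left and LF groups on the right. The copy is highest in HF control 1 (31.8 TPM) and LF control 2 (36.0 TPM), where Timm23 is lowest, and is listed at 0 in LF control 3.

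The first question of the design is how HF and LF muscle differ. Averaged over laparotomy and control, with 6 libraries on each side, HF muscle had less of the receptor Tomm70a, the channel paralog Tomm40l, the TIM22 subunit Timm29 and the TIM23 subunits Timm17a and Timm21, and more of the small TIM Timm9 and the small TOM subunit Tomm7. The other 16 did not pass the test (limma on log2(TPM + 1), adjusted p below 0.05 over all 10757 genes tested). So 2 of 23 members were higher (8.7%) and 5 lower (21.7%), where 6.03% of all genes tested were higher and 35.3% lower. The members' median difference was -0.12 (log2, HF minus LF), and that of all genes was -0.15, a shift that differed between scalings. Differences are therefore given as deposited, ± their standard error, and again relative to this shift. In bulk muscle, fewer cells of a type and less RNA per cell cannot be told apart.

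**Figure D2:**
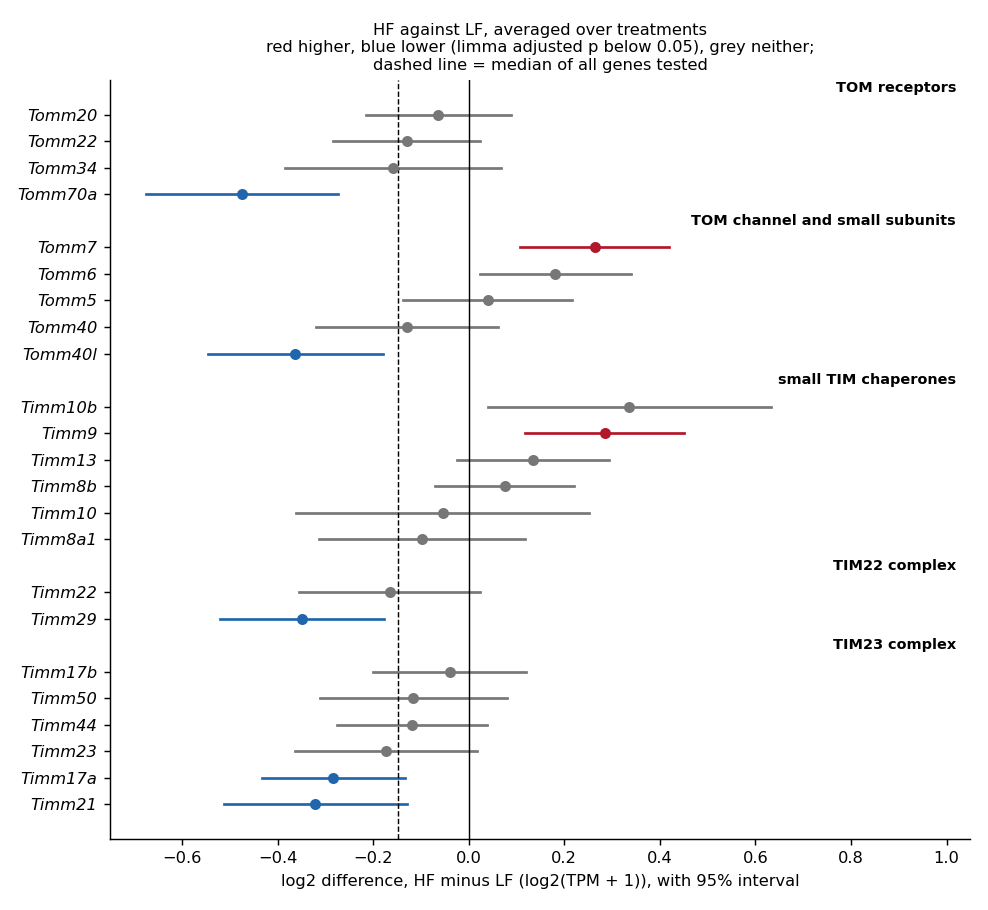
Points are log2 differences (HF minus LF, averaged over laparotomy and control) of the 23 tested members by role, lines their 95% intervals. The solid line is 0 and the dashed line the median of all genes (-0.15). Blue and red members passed the test as deposited (5 lower, 2 higher), grey ones did not. With size factors, Timm17a, Tomm40l and Timm21 no longer passed and Timm8b, Timm10b, Timm13 and Tomm6 did.

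Among the receptors, Tomm70a, which takes up carriers handed over by cytosolic chaperones, had 14.7, 14.3 and 15.6 TPM in HF laparotomy and 17.5, 20.4 and 15.6 in HF control. It had 18.2, 23.4 and 26.4 TPM in LF laparotomy and 22.8, 24.5 and 23.1 in LF control. HF and LF did not overlap within either treatment, and across treatments only LF laparotomy 1 lay among the HF values, below HF control 2. The difference was -0.48 ± 0.093 (limma adjusted p = 0.00213), or -0.33 relative to all genes, and the call was kept without each of the 12 libraries in turn and under all 9 other settings tried. Nit2, which overlaps it on the other strand, differed by -0.15 ± 0.071 (limma adjusted p = 0.0963). Tomm22 (-0.13 ± 0.071), Tomm20 (-0.06 ± 0.070) and Tomm34 (-0.16 ± 0.10) did not pass, with limma adjusted p of 0.159, 0.491 and 0.239. Without LF laparotomy 1, Tomm22 and Tomm34 were called lower as well.

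Of the channel and its small subunits, Tomm40l had 21.7, 19.4 and 18.3 TPM in HF laparotomy and 22.8, 26.8 and 23.2 in HF control, against 22.7, 29.6 and 30.2 in LF laparotomy and 28.2, 30.1 and 30.5 in LF control. Within each treatment every HF library lay below every LF library. The averaged difference was -0.36 ± 0.085 (limma adjusted p = 0.00521), or -0.22 relative to all genes. It did not pass with median-of-ratios size factors, with quantile normalization, or once the trend with transcript length and GC content was removed (limma adjusted p up to 0.0941). Tomm40 itself had 24.0, 24.2 and 22.99 TPM in HF laparotomy and 22.6, 28.4 and 27.9 in HF control, against 25.8, 27.0 and 33.9 in LF laparotomy and 25.9, 23.7 and 28.8 in LF control. These groups overlapped among controls, and it differed by -0.13 ± 0.088 (limma adjusted p = 0.254).

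Tomm7, which in yeast modulates how the TOM complex assembles and in human cells helps to stabilise PINK1, went the other way. It had 53.9, 53.6 and 48.0 TPM in HF laparotomy and 53.7, 49.7 and 51.5 in HF control, against 40.7, 42.1 and 47.5 in LF laparotomy and 44.1, 37.8 and 45.9 in LF control. All 6 HF libraries lay above all 6 LF libraries, the nearest being HF laparotomy 3 and LF laparotomy 3. The difference was 0.26 ± 0.072 (limma adjusted p = 0.0114), or 0.41 relative to all genes, and the call was kept under every setting tried, including each left-out library. Tomm6, another small subunit, had 56.0, 56.5 and 57.3 TPM in HF laparotomy, 56.9, 60.5 and 60.9 in HF control, 45.1, 52.6 and 60.3 in LF laparotomy and 51.1, 47.1 and 51.2 in LF control. Only LF laparotomy 3 lay within the HF values. Usp49, which overlaps Tomm6 on the other strand, was lower in HF (-0.26 ± 0.097, limma adjusted p = 0.0494). As deposited Tomm6 did not pass (0.18 ± 0.073, limma adjusted p = 0.063), while without LF laparotomy 3, and with size factors, rescaled TPM, quantile normalization or the length and GC trend removed, it was called higher. Tomm5 was at 0.04 ± 0.081 and was called higher with quantile normalization alone.

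Among the small TIMs, Timm9 had 17.1, 14.0 and 13.9 TPM in HF laparotomy and 16.0, 17.6 and 14.7 in HF control, against 12.8, 12.3 and 12.8 in LF laparotomy and 13.2, 12.8 and 11.3 in LF control. Every HF library was above every LF library. The difference was 0.28 ± 0.077 (limma adjusted p = 0.0109), or 0.43 relative to all genes, and was called under all settings tried. Its hexamer partner Timm10 differed by -0.05 ± 0.14 (limma adjusted p = 0.782), with 57.0 TPM in LF laparotomy 3 against 28.8 to 42.3 TPM in the other 11 libraries. Timm10b was at 0.34 ± 0.14 (limma adjusted p = 0.0655), and was called higher without LF laparotomy 3 or LF control 3 and under 4 other scalings. Timm13 (0.13 ± 0.074) and Timm8b (0.08 ± 0.067) did not pass as deposited. Both were called higher with size factors and with quantile normalization, and Timm13 also with rescaled TPM. Timm8b had 167, 159.8 and 145 TPM in HF laparotomy and 143, 144 and 163 in HF control, against 140.4, 143 and 162 in LF laparotomy and 137, 144 and 147 in LF control, which overlap. Nkapd1, which overlaps Timm8b on the other strand, was lower in HF (-0.41 ± 0.10, limma adjusted p = 0.0075). Arfip2, which overlaps Timm10b in this way, was at 0.04 ± 0.092 (limma adjusted p = 0.756). Timm8a1 had 11.9, 11.6 and 11.8 TPM in HF laparotomy and 12.6, 12.7 and 11.9 in HF control, against 9.86, 13.6 and 16.6 in LF laparotomy and 13.4, 13.2 and 12.3 in LF control. LF laparotomy held both its lowest and its highest library, and the difference (-0.10 ± 0.10) did not pass, while without LF laparotomy 1 it was called lower. The median of the 6 small TIMs was 0.10, or 0.25 relative to all genes.

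In the TIM22 complex, Timm29 had 18.0, 18.5 and 18.1 TPM in HF laparotomy and 19.5, 22.6 and 19.1 in HF control, against 20.7, 23.9 and 26.3 in LF laparotomy and 24.1, 25.4 and 29.1 in LF control. The groups did not overlap within a treatment, and LF laparotomy 1 lay below HF control 2. The difference was -0.35 ± 0.079 (limma adjusted p = 0.00453), or -0.20 relative to all genes, and did not pass once the length and GC trend was removed (limma adjusted p = 0.0987). Yipf2, on the other strand, was at 0.28 ± 0.11 (limma adjusted p = 0.0608). Timm22, the channel, was at -0.17 ± 0.088 (limma adjusted p = 0.146).

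Of the 6 TIM23 genes 2 passed, both lower, beside 35.3% of all genes. All 6 differences were negative as deposited, and relative to all genes their median was 0.00. Timm17a had 155, 146 and 136 TPM in HF laparotomy and 159, 178 and 165 in HF control, against 176, 193 and 214 in LF laparotomy and 186, 175 and 199 in LF control. HF and LF did not overlap after laparotomy, and among controls HF control 2 lay above LF control 2. The difference was -0.28 ± 0.069 (limma adjusted p = 0.00648), or -0.14 relative to all genes, and did not pass with size factors (limma adjusted p = 0.194). Timm21 had 15.1, 14.1 and 13.8 TPM in HF laparotomy and 17.9, 14.4 and 13.1 in HF control, against 16.2, 19.3 and 20.3 in LF laparotomy and 16.9, 19.0 and 20.02 in LF control. HF control 1 lay above the lowest library of each LF group. Its difference was -0.32 ± 0.089 (limma adjusted p = 0.0122), or -0.17 relative to all genes, and did not pass in the 3 settings that ended the call of Tomm40l (limma adjusted p up to 0.299).

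Timm23 differed by -0.17 ± 0.088 (limma adjusted p = 0.13), and was called lower without LF control 2, 1 of the libraries richest in its copy. Summed with its copy Gm10273, a setting chosen after the data were seen, it differed by -0.13 ± 0.062 (limma adjusted p = 0.104). Timm44 (-0.12 ± 0.072), Timm50 (-0.12 ± 0.091) and Timm17b (-0.04 ± 0.074) did not pass.

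**Figure D3:**
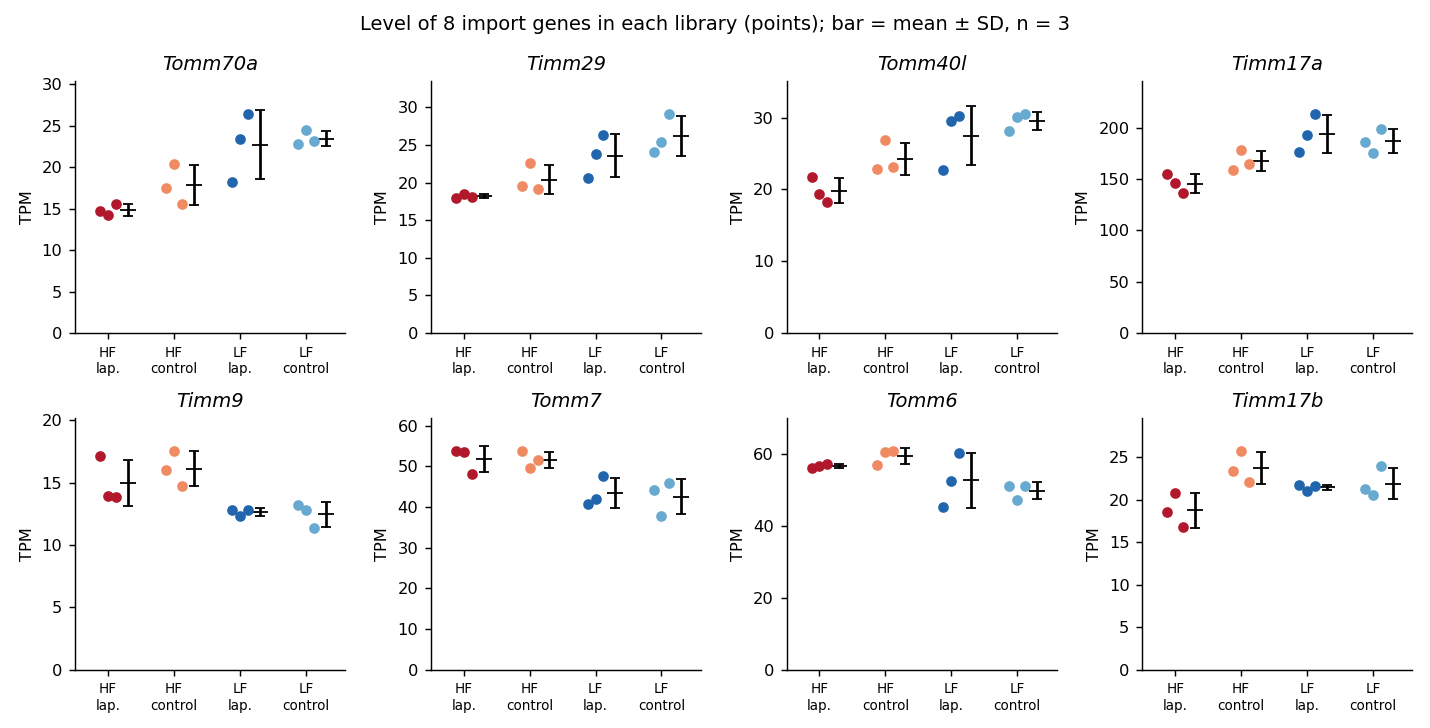
Each panel shows the level of 1 gene in TPM, from 0, in the 4 groups, with a point per library and the mean ± SD beside it (n = 3). Tomm70a, Timm29, Tomm40l and Timm17a are lower in HF groups, although size factors end the call of Tomm40l and Timm17a and removing the length and GC trend ends that of Tomm40l and Timm29. Timm9 and Tomm7 are higher in all 6 HF libraries, and Tomm6 and Timm17b did not pass between HF and LF as deposited.

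In GRCm38 (GENCODE M21) Tomm70a (ENSMUSG00000022752) lies on chromosome 16 from 57121703 to 57156705, Timm29 (ENSMUSG00000048429) on chromosome 9 from 21592722 to 21595970 and Tomm40l (ENSMUSG00000005674) on chromosome 1 from 171216011 to 171222514. Timm17a (ENSMUSG00000062580) lies on chromosome 1 from 135295213 to 135313778, Timm9 (ENSMUSG00000021079) on chromosome 12 from 71123173 to 71136684 and Tomm7 (ENSMUSG00000028998) on chromosome 5 from 23838944 to 23844161. Their TPM count whole transcripts, so exons and UTRs are not told apart.

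The difference between HF and LF moved with transcript length. Over the 23 members, Spearman's rho between length and the log2 difference was -0.635, and over the 10686 tested genes with a length it was -0.316. These points share the same libraries and are a description. The tested genes were divided by length into 4 classes of equal size. In the shortest class (up to 1157 nucleotides) the median difference of all genes was -0.01, and the 11 members there had a median of 0.08 and held both higher calls and 1 lower call (Timm17a), beside 12.9% of all genes higher and 18.8% lower in that class. In the next class the medians were -0.12 for all genes and -0.12 for its 6 members, none of which was called. In the class from 2053 to 3295.5 nucleotides all genes had a median of -0.19 and the 5 members one of -0.32, with Timm21, Timm29 and Tomm40l called lower, beside 41.9% of all genes there. Tomm70a, with 5964 nucleotides, was the 1 member in the longest class, where the median of all genes was -0.26 and 52% of them were lower. With the length and GC trend removed across all genes, 4 members were called higher (Timm9, Tomm7, Timm10b and Tomm6) and 2 lower (Tomm70a and Timm17a), beside 15.7% and 19.5% of all genes. The part of length in these differences was not tested further.

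**Figure D4:**
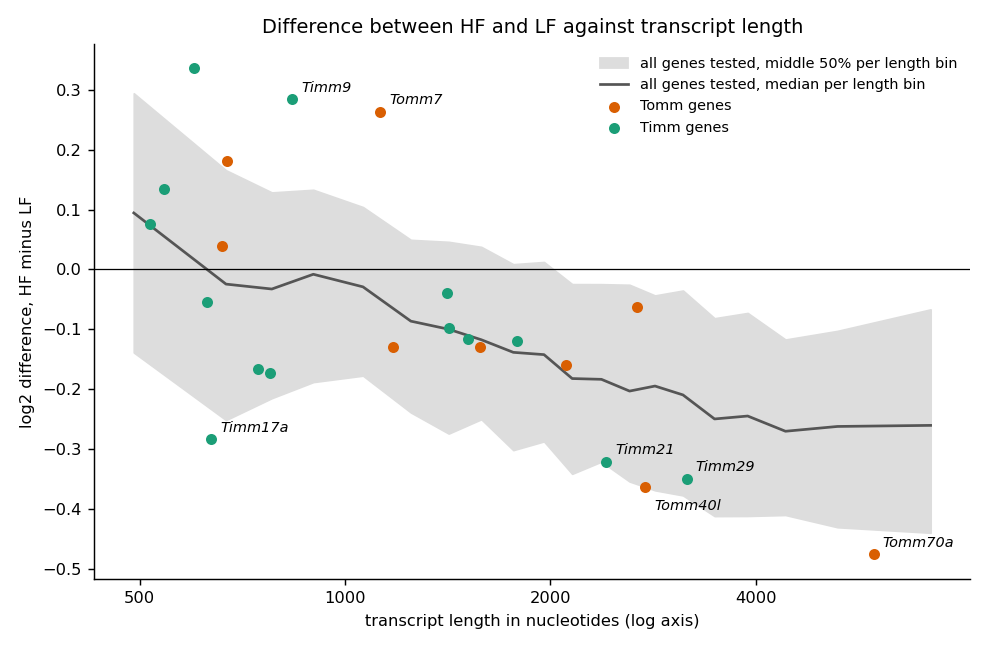
The log2 difference (HF minus LF, averaged over treatments) is plotted against transcript length in nucleotides on a log axis, with Tomm genes in orange and Timm genes in green. The grey line and band are the median and the middle 50% of all tested genes in 20 bins of length. Short members lie on both sides of 0 and the members called lower include the longest (Tomm70a at 5964 nucleotides), with Timm17a as the short exception.

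The scaling of the libraries set how many members passed in each direction. As deposited, 14.6% of all called genes were higher in HF. With median-of-ratios size factors it was 43.5%. TPM rescaled after dropping the 13 genes of the mitochondrial genome and the 10 most abundant genes gave 24.6%, quantile normalization 46.0% and removal of the length and GC trend 44.7%. Under these 4 the members called higher numbered 6, 5, 7 and 4, and those called lower 2, 5, 3 and 2. Of all genes, 17.4%, 9.97%, 18.8% and 15.7% were then called higher and 22.6%, 30.6%, 22% and 19.5% lower. The median of all genes was then -0.01, -0.10, 0.00 and 0.01, and that of the members 0.05, -0.05, 0.08 and 0.01. Both higher calls as deposited, Timm9 and Tomm7, and the lower call of Tomm70a were kept in all 4.

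A share within a pair of paralogs is not changed by any factor that multiplies a whole library, although quantile normalization or a trend with length can still change it, since the paralogs differ in length (2753 nucleotides for Tomm40l and 1577 for Tomm40, 1409.5 for Timm17b and 636 for Timm17a, 1421 for Timm8a1 and 518 for Timm8b). The part of length in the shares was not tested. Timm17b, encoded on the X chromosome, is the less abundant TIM23 channel paralog, and its share of Timm17a + Timm17b was 11.4% ± 0.957 in HF laparotomy, 12.4% ± 0.536 in HF control, 10.01% ± 0.893 in LF laparotomy and 10.5% ± 0.257 in LF control (SD, n = 3 each). It was 10.7% to 12.8% in HF and 9.19% to 10.96% in LF libraries, so the ranges overlapped. The HF share exceeded the LF share by 1.66 points on average (two-sided exact permutation of function labels inside each treatment, p = 0.01, adjusted over 3 pairs 0.0225). The smallest p that this test can give is 0.005. The Tomm40l share of Tomm40 + Tomm40l was 45.4% ± 1.75 in HF laparotomy, 48.1% ± 2.47 in HF control, 48.7% ± 3.06 in LF laparotomy and 53.2% ± 2.44 in LF control, a difference of -4.20 points (HF minus LF, exact permutation p = 0.015, adjusted 0.0225). Without the 3 libraries with Myh4 above 30 TPM that difference was -4.89 points with an exact permutation p of 0.05, in a smaller design. The Timm8a1 share of Timm8a1 + Timm8b was 6.99% ± 0.493 in HF laparotomy, 7.68% ± 0.741 in HF control, 8.19% ± 1.44 in LF laparotomy and 8.33% ± 0.577 in LF control. It did not pass (-0.92 points, exact permutation p = 0.11), and without LF laparotomy 1 it was -1.33 points with an exact permutation p of 0.03. These shares are built from the levels given above and are not separate evidence.

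**Figure D5:**
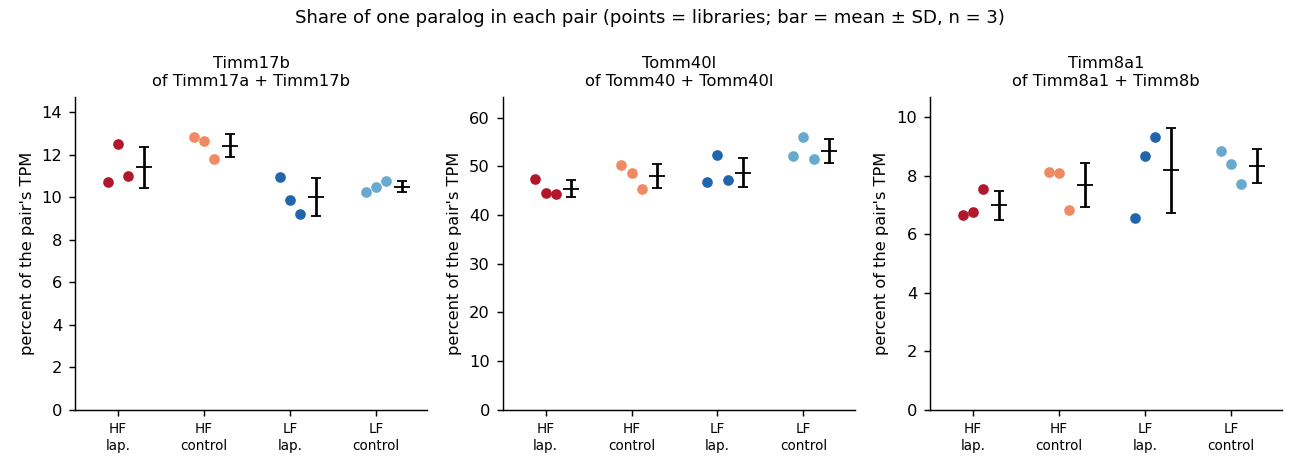
Points are the share, in percent from 0, of 1 paralog in the summed TPM of its pair in each library, with the mean ± SD of each group (n = 3). The Timm17b share was higher in HF and the Tomm40l share lower in HF, and the Timm8a1 share did not pass the exact permutation test (p = 0.11).

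Within the laparotomy mice alone, HF had less of 4 members: Tomm70a (-0.57 ± 0.13, limma adjusted p = 0.0115), Timm17a (-0.41 ± 0.098, limma adjusted p = 0.0125), Tomm40l (-0.45 ± 0.12, limma adjusted p = 0.0195) and Timm29 (-0.35 ± 0.11, limma adjusted p = 0.0361). In each, the 3 HF libraries lay below the 3 LF libraries. The same held for Timm23, Timm44, Tomm40, Timm22, Timm17b and Timm21, which were not called. For Tomm7 and Timm9, also not called, the HF libraries all lay above. How many of all genes did not overlap was not counted. That is 0 higher and 4 lower of 23 (17.4%), where 1.5% of all genes were higher and 24.5% lower, and relative to the all-gene median the 4 lay at -0.37, -0.22, -0.26 and -0.16. The lower calls numbered 2, Tomm70a and Timm17a, without HF laparotomy 2, HF laparotomy 3, LF laparotomy 2 or LF laparotomy 3, where 9.46%, 20.8%, 9.24% and 9.32% of all genes were lower. They numbered 9 without LF laparotomy 1, where 37% of all genes were lower. Timm29 alone was lost without HF laparotomy 1 or LF control 2. Tomm70a kept its call in all 10 other settings and Timm17a in 9, the exception being size factors. Tomm40l kept its call in 5 of these 10 settings and Timm29 in 4. Both lost it with size factors, rescaled TPM, quantile normalization, removal of the length and GC trend and a fit of only the groups compared, and Timm29 also with no filter.

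Among the controls alone, 0 members passed in either direction (limma), where 2.44% of all genes were called higher and 8.04% lower. At an unadjusted p below 0.05 there were 4 higher and 4 lower of 23, beside 31.9% of all genes in either direction, which is near the members' share. The smallest p was that of Timm9 (0.35 ± 0.11, limma adjusted p = 0.0569), whose HF and LF control libraries did not overlap. Tomm70a was at -0.38 there, against -0.57 after laparotomy, and the test of that difference is the interaction below. Without LF laparotomy 1, 2 members were called higher and 2 lower among the controls, where 3.66% and 15.7% of all genes were. Without LF laparotomy 3 there were 3 higher and 2 lower, beside 4.29% and 14.8% of all genes. All groups share 1 estimate of the spread, so a library of another group bears on this contrast. Without HF control 2, 2 were lower, beside 10.6% of all genes. Timm29 and Tomm70a were the lower calls each time.

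For the surgery itself, limma called 0 of 10757 genes in HF, in LF, averaged or in the interaction, so 0 members passed against a background of 0. At an unadjusted p below 0.05 the members numbered 2 of 23 in HF, 0 in LF, 2 averaged and 0 in the interaction, beside 6.18%, 2.71%, 6.94% and 3.08% of all genes. In HF mice the smallest p was that of Timm17b, which had 18.6, 20.8 and 16.8 TPM in HF laparotomy, against 23.4, 25.8 and 22.1 in HF control. These 2 groups did not overlap, and the difference was -0.33 ± 0.10 (limma adjusted p = 0.655). In LF mice Timm17b had 21.7, 21.1 and 21.6 TPM after laparotomy and 21.2, 20.5 and 24.0 in controls, which overlap, with a difference of -0.03 ± 0.10. The averaged difference was -0.18 ± 0.074 (limma adjusted p = 0.683) and the interaction -0.30 ± 0.15 (limma adjusted p = 0.9998).

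In LF mice the smallest p was that of Timm22, which had 25.3, 28.2 and 29.5 TPM in LF laparotomy, against 27.2, 20.6 and 24.5 in LF control. The groups overlapped and the difference was 0.20 ± 0.12 (limma adjusted p = 0.9995). As deposited, 21 of 23 members lay below 0 after laparotomy in HF and 8 of 23 in LF. The medians of the members were -0.13 in HF and 0.03 in LF, beside -0.12 and -0.03 for all genes. With size factors 12 of 23 lay below 0 in HF, so the count follows the scaling. The interaction was negative in 22 of 23 members as deposited, with a median of -0.15 beside -0.09 for all genes, and in 15 of 23 with size factors or without LF laparotomy 3. Without the 3 libraries with Myh4 above 30 TPM, 21 of 23 members lay above 0 in LF (15 as deposited). In the interaction 0 then did (1 as deposited). The median of all genes moved as well, to 0.06 in LF and to -0.18 in the interaction. That of the members was then 0.14 and -0.27.

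The genes that work with the translocases were counted from 8 lists that hold 50 genes in all, each of them tested. In HF against LF, averaged, 1 was higher (2%) and 28 lower (56%), with a median of -0.23, beside 6.03% and 35.3% of all genes. The lower ones numbered 14 with size factors, 24 with rescaled TPM, 18 with quantile normalization and 17 after removal of the length and GC trend, beside 22.6%, 30.6%, 22% and 19.5% of all genes. Without the 3 libraries with Myh4 above 30 TPM, 0 were higher and 25 lower, beside 3.31% and 30.6% of all genes. In HF laparotomy against LF laparotomy 19 were lower (38%), beside 24.5% of all genes, and in HF control against LF control 8 (16%), beside 8.04%. In the contrasts of laparotomy against control 0 passed. The counts of single lists given next are as deposited, where 35.3% of all genes were lower. With size factors, where 22.6% were, the lower ones numbered 1 in the motor, 3 in processing, 1 in sorting and contact sites, 3 in insertase and quality control, 2 in outer membrane channels, 2 in folding and 2 in cytosolic delivery. The sorting and contact site genes called lower numbered 2 with quantile normalization and 1 after removal of the length and GC trend. Without LF laparotomy 3, where 30.4% of all genes were lower, the cytosolic ones numbered 2 and the motor ones 1. Processing then had 4, sorting and contact sites 4, and insertase and quality control 5. Some counts also moved without the 3 libraries with Myh4 above 30 TPM, where 30.6% of all genes were lower. The lower ones then numbered 4 in processing, 6 in sorting and contact sites, 5 in insertase and quality control and 3 in cytosolic delivery.

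In the import motor, Hspa9, the matrix Hsp70 that pulls chains inward, was lower in HF. It had 191, 196 and 186 TPM in HF laparotomy and 214, 230.4 and 218 in HF control, against 247, 289.7 and 353 in LF laparotomy and 282, 283 and 319.99 in LF control. All 6 HF libraries lay below all 6 LF libraries, and the difference was -0.51 ± 0.082 (limma adjusted p = 0.00082). Grpel2, a nucleotide exchange factor of this Hsp70, was at -0.31 (limma adjusted p = 0.0413), a call kept only when the library left out was HF laparotomy 3, HF control 2, LF laparotomy 1 or LF control 1. The Grpel2 call was also lost with no filter, size factors, quantile normalization or removal of the length and GC trend. Romo1, the mammalian counterpart of a yeast TIM23 subunit, was higher (0.29 ± 0.093, limma adjusted p = 0.0239) and lost its call without HF laparotomy 1, HF control 3, LF laparotomy 2, LF control 2 or LF control 3, and without the 3 libraries with Myh4 above 30 TPM together. With no filter Romo1 lost its call too. The 7 genes on the motor list thus split into 1 higher (Romo1), 2 lower and 4 that did not pass. The motor list also holds Pam16, which has a copy identical over the matched length, Gm9803, at a higher level (47.6 TPM mean), so its own value is uncertain.

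Of the 7 processing peptidases 5 were lower, led by Xpnpep3, an aminopeptidase that trims imported proteins (-0.49, limma adjusted p = 0.000701), and Pmpca, a subunit of the presequence peptidase (-0.43, limma adjusted p = 0.00109). Xpnpep3 was listed at only 0.745 TPM (HF laparotomy 1) to 2.04 TPM (LF control 2). That is near the filter of 1 TPM and the pseudocount, and the filter at 5 TPM left it out. None of the 3 genes of the intermembrane space oxidation pathway passed. Of the 10 sorting and contact site genes 5 were lower. Immt, which shapes the cristae junctions and binds the outer membrane machinery, had 77.8, 81.9 and 89.2 TPM in HF laparotomy and 90.1, 117 and 104 in HF control, against 135, 158 and 199 in LF laparotomy and 159, 173 and 174 in LF control. The 6 HF libraries all lay below the 6 LF libraries, with a difference of -0.83 ± 0.096 (limma adjusted p = 0.00031). Samm50, the sorting channel that inserts beta-barrels such as Tomm40, was at -0.25 (limma adjusted p = 0.014), a call lost with size factors and after removal of the trend with length and GC.

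Of the 9 insertase and quality control genes 6 were lower, including Afg3l2, a subunit of the matrix-facing membrane protease (-0.50, limma adjusted p = 0.00227), and Phb, a prohibitin (-0.43, limma adjusted p = 0.00197), which has a near-identical transcribed pseudogene at up to 10.7 TPM. Of the 5 outer membrane insertase and channel genes 3 were lower. These were the metabolite channels Vdac1 (-0.67, limma adjusted p = 0.000494), Vdac2 (-0.50, limma adjusted p = 0.000431) and Vdac3 (-0.26), of which Vdac3 lost its call with size factors and after removal of the trend with length and GC. Of the 3 folding genes 2 were lower, the matrix chaperonin Hspd1 (-0.45, limma adjusted p = 0.00223) and the chaperone Trap1 (-0.43, limma adjusted p = 0.0023). Of the 6 cytosolic chaperones that deliver precursors 5 were lower, led by Stip1, which links Hsp70 to Hsp90 (-0.45, limma adjusted p = 0.00133), and Hsp90aa1 (-0.40, limma adjusted p = 0.00621). These are partners of Tomm70a, which docks such chaperones. Hspa9, Xpnpep3, Pmpca, Immt, Afg3l2, Phb, Vdac1, Vdac2, Hspd1, Trap1, Stip1 and Hsp90aa1 kept their calls without each library in turn and in every other setting in which they were tested.

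Other nuclear genes for mitochondrial proteins gave different counts in the same contrast. Of the 82 tested nuclear genes for respiratory chain subunits, many of which pass through these translocases as precursors, 31 were higher (37.8%) and 7 lower (8.54%), with a median of 0.16. Of the 77 mitochondrial ribosomal protein genes 7 were higher (9.09%) and 12 lower (15.6%), with a median of 0.02. These stand beside 8.7% and 21.7% for the Timm and Tomm genes. With size factors the respiratory chain counts were 55 and 4 and the ribosomal ones 32 and 6, beside 17.4% and 22.6% of all genes. Without the libraries with Myh4 above 30 TPM the respiratory chain counts were 13 and 7 and the ribosomal ones 3 and 13, beside 3.31% and 30.6% of all genes. No difference between the families was tested.

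Markers of other cell types were summed over whole lists, with no test. White adipocyte markers (5 genes, 3 of them at 1 TPM or more) summed to 355 to 543 TPM in HF and 279.6 to 374 TPM in LF libraries, most of it Fabp4, while Plin1 was at 0 in every library but LF laparotomy 3. Endothelial markers (5 of 5) summed to 166 to 229 TPM in HF and 139 to 184 TPM in LF, and Schwann cell and nerve markers (5 of 5) to 50.5 to 167 TPM in HF and 33.6 to 43.5 TPM in LF. The adipocyte and endothelial ranges overlapped, and of the 5 endothelial genes Egfl7 alone did not overlap (71.0 to 94.0 TPM in HF, 48.1 to 56.1 in LF). The Schwann cell ranges did not overlap, with the 167 TPM in HF laparotomy 3. HF control libraries, at 56.5 to 67.8 TPM, also lay above all LF libraries, so leaving that library out does not remove this difference. Brown adipocyte markers summed to 15.01 TPM or less, with Ucp1, their defining gene, at 0 in all 12 libraries. Macrophage, erythroid, tendon and cardiac sums overlapped between HF and LF. The part of these cells in the Timm and Tomm differences was not tested.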

How the data were processed

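The authors deposited 1 table of gene-level TPM, transcript abundances scaled to a fixed total, made after polyA pull-down with a stranded kit, per the labels' protocols. The tools kallisto and DESeq2 and the build GRCm38 come from the list in the submitters' processing notes; no version or role is listed. Read counts, batches and the strand setting: not given in the sources used here. From the TPM, log2(TPM + 1) was computed, and 10757 genes averaging 1 TPM or more were tested over all 12 libraries with limma 3.58.1 (R 4.3.3). The model had 4 group means, which left 8 residual degrees of freedom, and let the variance follow the mean. Tests were two-sided, with Benjamini-Hochberg adjustment over all genes in each of 7 contrasts and a threshold of 0.05. TPM sums were 956473 to 962830 over the listed genes. Of the identifiers 29857 matched a GENCODE M21 symbol and 466 did not. Coding sequences and lengths come from GENCODE M21, promoters from RefSeq. Near-identical copies were searched with blastn 2.17.0 at 95% identity and 80% cover.

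Per-library values are given for the 3 higher and 3 lower members with the smallest p in HF against LF, filled by p, for the smallest p of each other contrast for the 3 paralog pairs and for other called members, and Tomm6 was added after its values were seen. Up to 2 partners per list and direction are named by p, and Vdac3, Pam16 and the per-library values of Hspa9 and Immt were chosen after their values were seen. Members and lists were chosen with earlier results of these data known. Alternatives were pseudocounts of 0.5 and 0.1, no filter or a filter at 5 TPM, size factors by median of ratios, rescaled TPM, quantile normalization, removal of the length and GC trend, only the groups compared, and libraries left out. The paralog shares were compared by exact permutation (400 permutations, smallest p 0.005). The fit was tested on simulated data.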

Additional observations from a re-analysis of the deposited data

How the results depend on the processing

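No Timm or Tomm difference that passed as deposited changed direction under any setting tried. In HF against LF, averaged, the members called higher numbered 2 as deposited (6.03% of all genes). They numbered 6 with size factors, 5 with rescaled TPM, 7 with quantile normalization and 4 after removal of the length and GC trend. Of all genes, 17.4%, 9.97%, 18.8% and 15.7% were then higher. Members called lower numbered 5 as deposited (35.3% of all genes) and 2, 5, 3 and 2 under the same settings. There 22.6%, 30.6%, 22% and 19.5% of all genes were lower. Leaving out each library in turn gave 2 to 4 higher and 5 to 8 lower, the 4 without LF laparotomy 3 (6.95% of all genes) and the 8 without LF laparotomy 1 (41.6%). In HF laparotomy against LF laparotomy 0 were higher as deposited and 3, 2, 4 and 2 in that order of settings (1.5%, 7.31%, 4.3%, 8.82% and 6.64% of all genes). The lower ones numbered 4 as deposited, then 1, 2, 2 and 2, and 2 when only the groups compared were fitted, with 2 to 9 without single libraries (24.5%, 11.8%, 13.3%, 11.5%, 10.6% and 12% of all genes, and 9.04% to 37%). In HF control against LF control 0 were higher as deposited, 4, 3, 5 and 2 in that order and 1 (Timm9) with a mean of at least 5 TPM (2.44%, 7.61%, 4.28%, 8.77%, 5.1% and 4.06% of all genes). In controls 0 were lower as deposited, 2 with rescaled TPM, 2 with quantile normalization and 1 (Tomm70a) when only the groups compared were fitted (8.04%, 16.5%, 10.6% and 11.8% of all genes). Without single libraries, 0 to 3 were higher and 0 to 2 lower, beside 0% to 4.29% and 0.0186% to 15.7% of all genes. The cause of these moves was not tested, apart from what the scalings change by construction.

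The members' median relative to all genes was 0.03 and, with no filter, -0.11, since the unfiltered genes have a median near 0, and ran from 0.01 to 0.07 without single libraries. The Tomm40l share difference was -4.20 points, -4.89 without the libraries with Myh4 above 30 TPM (exact permutation p = 0.05), and -4.74 to -3.32 without single libraries. The Timm17b share difference ran from 1.39 to 1.90 points and that of Timm8a1 from -1.33 to -0.64. Pseudocounts of 0.5 and 0.1 changed no call of a member. No paired analysis was possible because the labels give no replicate numbers. TPM carry no depth, so the precision of low members such as Timm8a2 is unknown.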
